A study of Mus musculus with 8 samples.

Results

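The collagen genes are described here in the kidney cortex of young and aged mice. Members were the rows of the count tables whose symbol matched the pattern of a collagen alpha chain, that is Col, a type number, the letter a and a chain number. The pattern found 43 genes of 22609, of which 32 had at least 10 counts in 4 or more libraries. Of these, 31 passed the filter of the differential expression test, which took in 13944 genes, and Col6a4 did not. The mice were untreated C57BL6 males, 4 aged (30 months per the labels) and 4 young (about 5 months). The study's methods give a slightly higher mean age for the aged mice than the labels do. RNA from each kidney cortex was depleted of ribosomal RNA and sequenced as 1 stranded library per mouse, and the comparison addresses which transcripts differ with age in this tissue. Both groups carried no transgene or mutation named in the labels.

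Collagens are secreted proteins in which 3 alpha chains wind around each other as a triple helix. Fibrillar types I, III and V form the fibrils of the interstitium, while type IV forms the sheet-like network of basement membranes. In the kidney a network of the alpha-1 and alpha-2 chains of type IV is found in most basement membranes, and a network of the alpha-3, alpha-4 and alpha-5 chains is the main one of the mature glomerular basement membrane. Type VI builds beaded filaments, the fibril-associated types sit on the surface of fibrils, and a few types span the plasma membrane. Before secretion the chains are hydroxylated and folded in the endoplasmic reticulum, and after it they are trimmed and crosslinked.

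The type IV genes lie as head-to-head pairs. In mm9, Col4a1 (ENSMUSG00000031502.9, minus strand, chr8:11198423-11312826) and Col4a2 (ENSMUSG00000031503.7, plus strand, chr8:11312805-11449287) overlap at their annotated 5′ ends by 22 bases and are transcribed away from each other. Col4a4 (chr1:82447298-82583424, minus strand) and Col4a3 (chr1:82583496-82718634, plus strand) lie 71 bases apart, and Col4a6 (chrX:137599946-137908619, minus strand) and Col4a5 (chrX:137909928-138123778, plus strand) 1308 bases apart. The windows from 250 bases before to 50 bases after the RefSeq starts of Col4a1 (chr8:11312777-11313076, minus strand) and Col4a2 (chr8:11312555-11312854, plus strand) are shown because these were the collagen genes that passed the adjusted test, with the 78 bases that both windows hold, on opposite strands, in capitals. Positions are in mm9, found by an exact match of the RefSeq sequence.
Col4a1: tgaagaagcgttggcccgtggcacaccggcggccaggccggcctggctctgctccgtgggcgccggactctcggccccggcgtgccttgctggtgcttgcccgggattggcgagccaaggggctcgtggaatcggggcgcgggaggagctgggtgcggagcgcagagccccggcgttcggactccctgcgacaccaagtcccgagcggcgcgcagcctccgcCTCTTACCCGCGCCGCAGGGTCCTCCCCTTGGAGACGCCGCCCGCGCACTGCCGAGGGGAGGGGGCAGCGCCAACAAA
Col4a2: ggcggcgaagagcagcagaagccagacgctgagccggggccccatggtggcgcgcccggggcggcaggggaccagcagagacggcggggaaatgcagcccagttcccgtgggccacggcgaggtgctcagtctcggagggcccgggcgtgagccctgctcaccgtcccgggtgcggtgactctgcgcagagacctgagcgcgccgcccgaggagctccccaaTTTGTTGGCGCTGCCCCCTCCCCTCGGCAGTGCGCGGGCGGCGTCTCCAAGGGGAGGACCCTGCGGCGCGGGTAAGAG

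The windows of Col1a2 (chr6:4455368-4455667, plus strand) and Col3a1 (chr1:45368133-45368432, plus strand), genes of the main interstitial fibrils, are shown for comparison, with any CCAAT or TATAAA, searched on both strands, in capitals.
Col1a2: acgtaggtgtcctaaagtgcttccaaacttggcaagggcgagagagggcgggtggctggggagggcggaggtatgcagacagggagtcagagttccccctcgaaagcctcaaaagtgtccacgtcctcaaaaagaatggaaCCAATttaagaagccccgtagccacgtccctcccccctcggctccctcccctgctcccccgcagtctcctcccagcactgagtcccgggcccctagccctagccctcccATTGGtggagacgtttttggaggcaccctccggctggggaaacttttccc
Col3a1: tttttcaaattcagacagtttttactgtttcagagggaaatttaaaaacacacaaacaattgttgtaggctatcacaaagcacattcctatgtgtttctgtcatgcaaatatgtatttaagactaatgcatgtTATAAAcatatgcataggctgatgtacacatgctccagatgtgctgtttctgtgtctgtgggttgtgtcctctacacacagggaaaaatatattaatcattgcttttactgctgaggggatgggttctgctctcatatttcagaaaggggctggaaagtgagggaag

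The Col1a2 window held 2 matches to CCAAT and none to TATAAA, whereas the Col3a1 window held 1 match to TATAAA and none to CCAAT. The Col4a1 and Col4a2 windows held 1 match to CCAAT each, none to TATAAA, and 1 and 3 matches to GGGCGG. Windows were looked up for the 31 genes tested and were at hand for 26 of them. Of these 28 windows in all, 8 held CCAAT, 2 held TATAAA and 18 held GGGCGG. Of 32851 windows of the same length over all genes, CCAAT was in 37.4%, TATAAA in 13.6% and GGGCGG in 35.7%. In the 4 windows printed no match overlapped one of another motif, and a match describes the letters of the window and not a bound site.

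The libraries held 14820804 to 19018543 counts on genes in aged mice and 15152597 to 19821429 in young mice, so that 3 counts corresponded to between 0.147 and 0.204 CPM. CPM is the count per 1000000 counts of a library whose size was scaled by trimmed mean of M-values, and where genes are compared with each other they are further divided by the length of the longest transcript in kilobases (CPM per kb). Proximal tubule markers such as Lrp2 and Slc34a1 were high in every library, as the label of kidney cortex requires. Aged mouse 1 stood apart. It lay at -71.5 on the first principal component of all genes, against -16.3 to 2.26 for the other aged mice and 21.6 to 26.2 for the young mice. The summed level of 6 proximal tubule markers was 8898 CPM in this mouse, against 18752 to 22776 CPM in the other 7. The summed level of 5 adipocyte markers was 262 CPM in it. This level was 8.5 to 68.6 CPM in the other aged mice and 1.09 to 24.3 CPM in young mice. The summed level of 5 urothelial markers was 64.8 CPM in aged mouse 1 against 0.34 to 5.92 CPM in the other 7. Fits without aged mouse 1 are therefore also given for many of the genes below. They keep aged mice 2 and 4, whose adipocyte sums, 68.6 and 42.5 CPM, also lay above every young mouse. All 4 adipocyte markers tested were higher in aged mice at an unadjusted p below 0.05 (edgeR), beside 13.4% of all genes. None of them was called. Nothing in the labels names a batch.

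Per kilobase, the 4 most abundant collagen transcripts of the young cortex were type IV chains. Col4a1 had 77.7 ± 6.22 (SD, n = 4) CPM per kb, Col4a4 73.0 ± 10.6, Col4a3 71.0 ± 13.3 and Col4a2 56.3 ± 3.06. The first 3 of these did not differ beyond their spread. Col18a1, a basement membrane proteoglycan that carries the endostatin domain, followed at 35.3 ± 3.77, and Col14a1, a fibril-associated chain, at 16.3 ± 1.92. The interstitial chains were lower, with Col27a1 at 13.4 ± 3.57, Col1a2 at 13.4 ± 1.96, Col3a1 at 9.96 ± 1.82 and Col1a1 at 6.36 ± 0.925. So were the remaining type IV chains, with Col4a5 at 8.93 ± 1.12 and Col4a6 at 0.284 ± 0.0936. The lengths matter for some of these values. With the union of all exons as the length, Col1a2 stood at 5.90 and Col27a1 at 7.86 CPM per kb, while the 6 highest genes kept their order. The 2 lowest of the 32 reported genes were Col24a1 at 0.171 ± 0.0462 and Col6a4 at 0.075 ± 0.0209.

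Summed over all collagen genes, the level per kilobase was 269 to 365 in aged mice and 405 to 457 in young mice, so that the groups did not overlap. The fibrillar genes summed to 28.2 to 40.9 in aged mice and 53.8 to 59.0 in young mice. The basement membrane genes summed to 202 to 274 against 311 to 357. In both classes every aged mouse lay below every young mouse. The sums of the other classes overlapped between the groups. Beaded filament genes summed to 9.64 to 21.1 in aged mice and 13.9 to 18.1 in young mice. Fibril-associated genes summed to 17.7 to 27.4 against 21.8 to 26.4. The sums of the network and membrane-spanning genes, which were lower, overlapped as well. The make-up by type shifted less than the total, as type IV chains made 61.6 to 66.0% of collagen per kilobase in aged mice and 64.5 to 67.8% in young mice, ranges that overlap. In tissue RNA, fewer cells of a type and less RNA per cell cannot be told apart.

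Col4a1 fell with age, and it was the only collagen gene of 31 tested to be called, that is, to have an adjusted p below 0.05 (edgeR quasi-likelihood test, Benjamini-Hochberg over 13944 genes) and a fold change above 1.5. Over all genes 2.06% were called, and 0.889% were called lower, so that 1 of 31 members lies close to the background share. Without a fold limit Col4a2 also passed, making 2 members where 2.95% of all genes did so. At an unadjusted p below 0.05, 10 of the 31 members were lower and 2 were higher, against 12.1% and 13.4% of all genes. The groups of 4 mice did not overlap for 5 members that were lower in aged mice (Col1a1, Col3a1, Col4a1, Col4a2 and Col15a1), beside 10% of all genes, and for 1 that was higher (Col12a1), beside 8.85%. The median log2 fold change, aged against young, was -0.27 over the 31 members and 0.03 over all genes tested. Without aged mouse 1, 5 members were called, all lower (Col1a1, Col3a1, Col4a1, Col5a2 and Col15a1), where 1.56% of all genes were called lower. DESeq2 called 6 members, all lower (these 5 and Col4a3), where it called 2.78% of all genes lower.

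**Figure D1:**
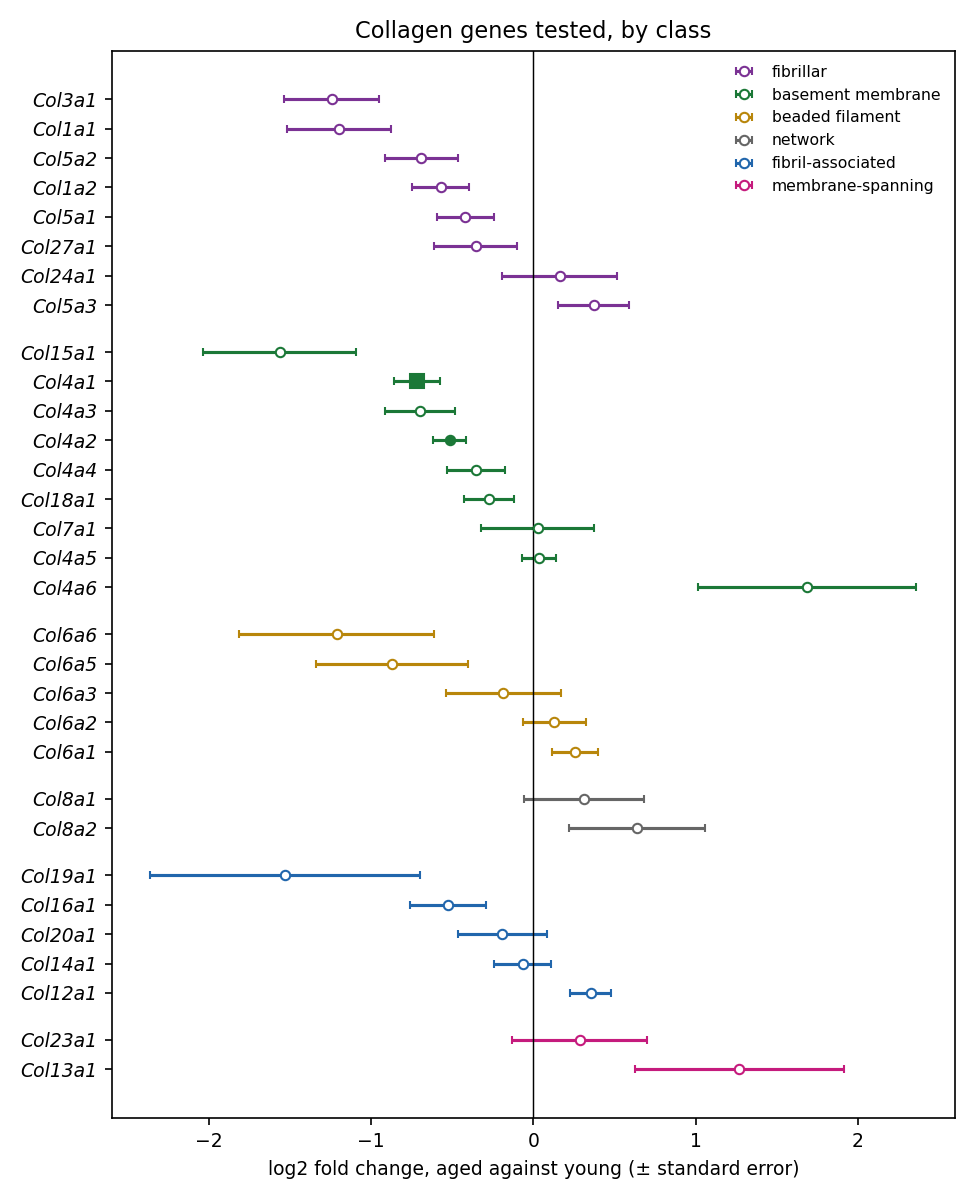
Log2 fold change, aged against young, with its standard error for the 31 collagen genes tested, by class; filled symbols have an adjusted p below 0.05, and the square is Col4a1, which also passed the fold limit. Col4a1 at -0.72 and Col4a2 at -0.52 are filled, while Col15a1, Col19a1, Col3a1 and Col1a1 lie further left with wider errors.

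Of the 8 fibrillar genes tested, none was called, 5 had an unadjusted p below 0.05 and were lower in aged mice (12.1% of all genes), and the median log2 fold change was -0.49. Type I is made of chains from Col1a1 and Col1a2, and type III of Col3a1 alone. Col1a2 (ENSMUSG00000029661.9, chr6:4454814-4491543) had 36.2, 63.5, 50.3 and 43.3 CPM in aged mice 1 to 4 and 82.5, 78.1, 66.7 and 59.5 CPM in young mice 1 to 4. The highest aged mouse lay above the lowest young mouse, so that the groups overlapped. Its log2 fold change was -0.57 (SE 0.18, adjusted p = 0.0969, edgeR), and -0.45 without aged mouse 1. Col3a1 (ENSMUSG00000026043.11, chr1:45368383-45406551) had 11.0, 32.8, 25.0 and 25.2 CPM in aged mice and 62.7, 61.5, 56.6 and 40.8 CPM in young mice. Here every aged mouse was below every young mouse, and aged mouse 1 was the lowest. The log2 fold change was -1.24 (SE 0.29, adjusted p = 0.0559, edgeR), and -1.0 without aged mouse 1, with an adjusted p of 0.0196.

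Col1a1 (chr11:94797538-94814356), singled out after its values were seen, had 6.53, 22.2, 20.9 and 16.2 CPM in aged mice and 42.7, 40.9, 36.8 and 30.4 CPM in young mice. The groups were apart, and aged mouse 1 was again the lowest. Its log2 fold change was -1.20 (SE 0.32, adjusted p = 0.0729, edgeR), and without that mouse it was -0.93 with an adjusted p of 0.0184. Together Col1a1, Col1a2 and Col3a1 gave 9.85 to 21.5 CPM per kb in aged mice and 23.6 to 33.9 CPM per kb in young mice.

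Col27a1 (ENSMUSG00000045672.7, chr4:62875038-62996025), a fibrillar chain best known from cartilage, had the highest mean level per kilobase of the class. It had 68.3, 58.3, 72.8 and 121 CPM in aged mice and 73.0, 86.2, 119 and 131 CPM in young mice, with a log2 fold change of -0.35 (SE 0.26, adjusted p = 0.397, edgeR). Aged mouse 4 was within the young range and the other 3 aged mice lay below it. Without aged mouse 4 the log2 fold change was -0.62 with an adjusted p of 0.098. Type V chains join type I in mixed fibrils. Col5a2, which lies 24614 bases from Col3a1 on chromosome 1 and is read from the other strand, had a log2 fold change of -0.69 (adjusted p = 0.107, edgeR). Its aged values of 22.7 to 44.3 CPM overlapped the young values of 40.1 to 61.5 CPM. Aged mouse 1 had the highest aged level here, in contrast to Col1a1 and Col3a1, and without it the log2 fold change was -0.86 with an adjusted p of 0.0496. Col5a1 stood at -0.42 (adjusted p = 0.176, edgeR), and Col5a3 and Col24a1, at low levels, at 0.37 and 0.16. Without aged mouse 1, Col5a1 stood at -0.29, Col5a3 at 0.505 and Col24a1 at 0.36.

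**Figure D2:**
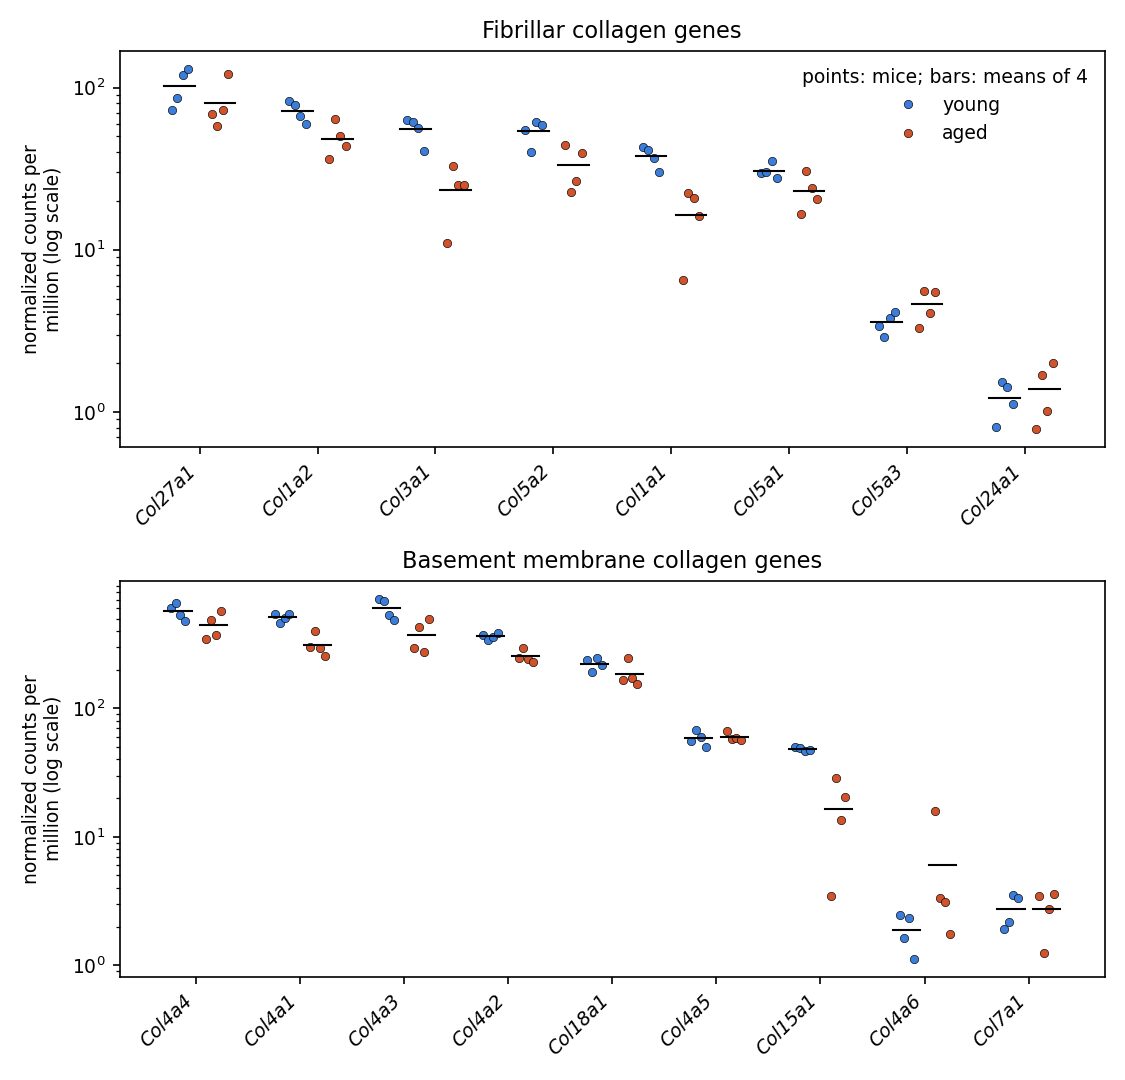
CPM on a log scale in each mouse for the fibrillar (top) and basement membrane (bottom) genes in order of mean level per kilobase; points are the 4 young and 4 aged mice and bars are group means. The aged points lie below all young points for Col3a1, Col1a1, Col4a1, Col4a2 and Col15a1, and aged mouse 1 is the lowest point of Col15a1 at 3.49 CPM and the highest of Col4a6 at 16.0 CPM.

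Of the 9 basement membrane genes, 1 was called, lower in aged mice, where 0.889% of all genes were called lower. At an unadjusted p below 0.05, 4 were lower (12.1% of all genes) and 1 was higher (13.4%). The median log2 fold change was -0.35. Col4a1 had 299, 399, 297 and 257 CPM in aged mice and 545, 458, 508 and 546 CPM in young mice, a mean of 313 ± 60.2 (SD, n = 4) against 514 ± 41.1. The groups were apart, and the aged mouse closest to the young group was aged mouse 2, not aged mouse 1. In the edgeR fit its log2 fold change was -0.72 (SE 0.14, adjusted p = 0.039, edgeR). It was -0.69 without aged mouse 1, with an adjusted p of 0.0354. The call was lost without aged mouse 3 (adjusted p = 0.0755) and without any 1 of the young mice (adjusted p from 0.0838 to 0.127), while the log2 fold change over all 18 alternatives stayed between -0.85 and -0.60. Col4a2 had 248, 296, 244 and 229 CPM in aged mice and 371, 339, 357 and 385 CPM in young mice. The order of the aged mice was that of Col4a1, with aged mouse 2 the highest and aged mouse 4 the lowest. Its log2 fold change of -0.52 (SE 0.10, adjusted p = 0.039, edgeR) was under the fold limit.

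The genes of the other network were spread more widely. Col4a4 (ENSMUSG00000067158.7), which had the highest mean level of the class, had 350, 491, 371 and 571 CPM in aged mice and 605, 666, 532 and 476 CPM in young mice. Aged mouse 4 lay above young mouse 3 and young mouse 4, and aged mouse 2 above young mouse 4 (log2 fold change -0.35, SE 0.18, adjusted p = 0.241, edgeR). Col4a3 (ENSMUSG00000079465.2) had 296, 433, 275 and 496 CPM in aged mice and 716, 692, 537 and 485 CPM in young mice. The same aged mouse 4 was above young mouse 4, which alone made the groups overlap. The log2 fold change was -0.70 (SE 0.22, adjusted p = 0.0983, edgeR), and -0.86 without aged mouse 4, with an adjusted p of 0.043. Col4a5, on the X chromosome, had 56.5 to 66.6 CPM in aged mice and 49.9 to 67.3 CPM in young mice, with a log2 fold change of 0.04 (SE 0.10) and a direction that turned without aged mouse 1. The alpha-3 to alpha-5 chains summed to 88.6 to 140 CPM per kb in aged mice and 125 to 176 in young mice, which overlap, whereas the alpha-1 and alpha-2 chains summed to 74.3 to 106 and 122 to 142, which do not.

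The median log2 fold change of 7 podocyte markers was 0.02 and that of 7 endothelial markers 0.06, with none of either called. Aged mouse 4 had the lowest sums of all mice for several lists. Its podocyte sum was 348 CPM against 477 to 672 CPM in the others, and its endothelial sum 497 against 567 to 708 CPM. Its smooth muscle and myofibroblast sum was 96.3 against 129 to 187 CPM. Of 7 fibroblast markers tested none was called, and their median was 0.08, with 4 above 0 and 3 below. Their summed level was 332 to 452 CPM in aged mice and 507 to 586 CPM in young mice. This turned on Ly6a at 96.8 to 274 against 318 to 391 CPM. Ly6a was called in 3 of 18 alternatives, among them the fit without aged mouse 1 (log2 fold change -0.85, adjusted p = 0.0455, edgeR). Pdgfra, in contrast, stood at 0.45 with all mice. Of 6 smooth muscle and myofibroblast markers none was called, with a median of 0.15, and 4 stood above 0 and 2 below. Tagln alone had separate groups (16.4 to 41.8 CPM in aged mice, 43.9 to 55.5 CPM in young mice), where 10% of all genes were separate and lower. Rgs5 and Myh11 stood at 0.69 and 0.62, with groups that overlapped. Of 7 leukocyte markers, whose median was 0.30, 1 was called, where 2.06% of all genes were called and 0.889% were called lower. This was Csf1r, the receptor of a macrophage growth factor, at 23.9 to 41.7 CPM in aged mice and 47.7 to 75.3 CPM in young mice (log2 fold change -1.0, SE 0.22, adjusted p = 0.0472, edgeR), and its call held in 11 of 18 alternatives. The other 6 leukocyte markers stood above 0, from 0.13 for Cd68 to 0.71 for Emr1, and none of them was called. The part of these cell types in the collagen values was not tested.

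Col15a1 (chr4:47221033-47326039) and Col18a1 are related chains found where basement membranes meet the interstitium. Col15a1, singled out after its values were seen, had 3.49, 28.7, 13.6 and 20.3 CPM in aged mice and 50.4, 49.4, 46.7 and 47.1 CPM in young mice. The young mice were nearly alike, and the aged mice were spread over a wide range below them. Its fitted log2 fold change was -1.56 (SE 0.47, adjusted p = 0.0942, edgeR), and it was -1.22 without aged mouse 1, with an adjusted p of 0.0213. Col18a1 had a log2 fold change of -0.27 (adjusted p = 0.288, edgeR). Col7a1, the chain of anchoring fibrils, was low in both groups and stood at 0.03.

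Col4a6, singled out after its values were seen, had 16.0, 3.32, 3.10 and 1.74 CPM in aged mice and 2.47, 1.64, 2.31 and 1.12 CPM in young mice. The aged mean was carried by aged mouse 1. The log2 fold change was 1.69 (SE 0.67, adjusted p = 0.161, edgeR), and 0.53 without that mouse. The same library had the highest summed levels of adipocyte and urothelial markers, given above, whose part in Col4a6 was not tested.

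**Figure D3:**
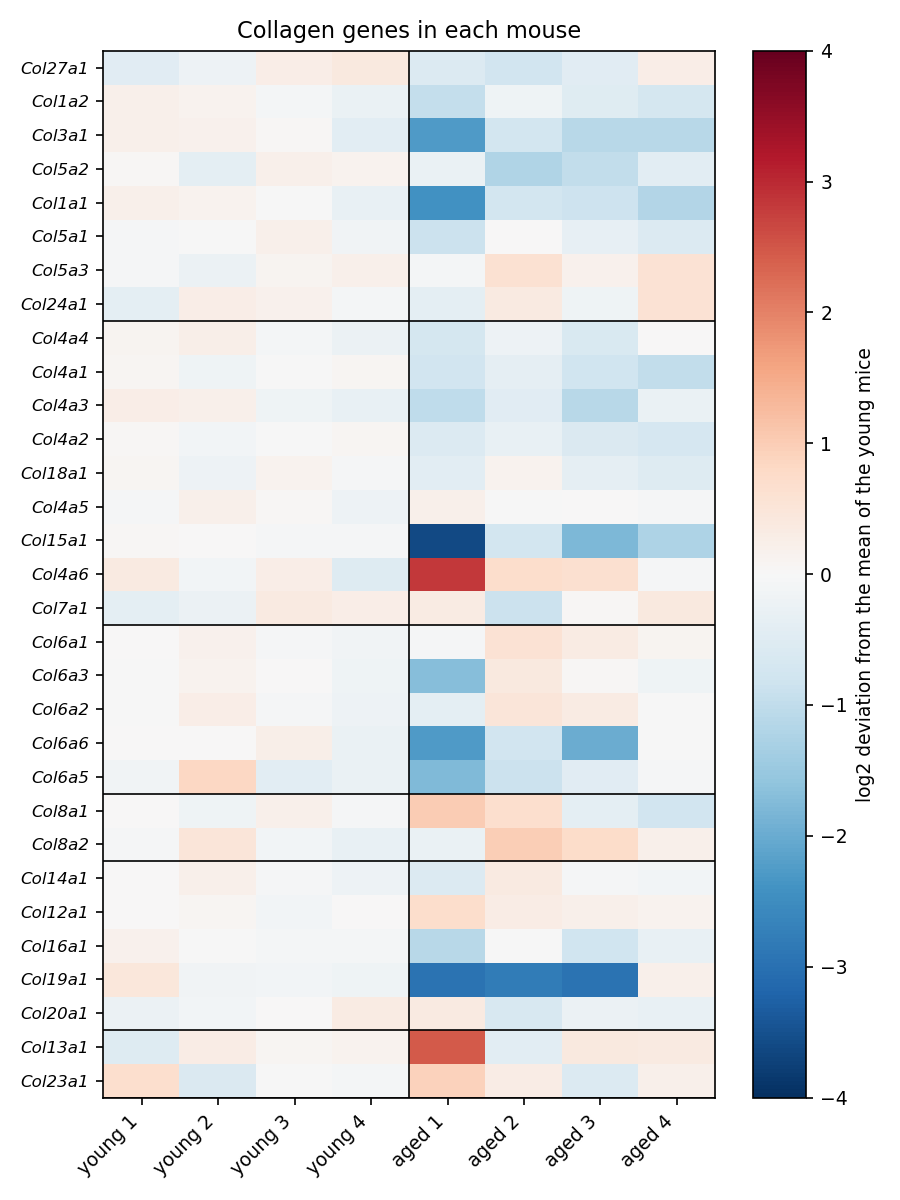
Log2 deviation of each mouse from the mean of the young mice, on log2(CPM + 0.5), for the 31 collagen genes tested, grouped by class (fibrillar, basement membrane, beaded filament, network, fibril-associated, membrane-spanning). Aged mouse 1 has the darkest column, the lowest of all 8 mice for 14 of the 31 genes and the highest for 6, and Col19a1 is dark blue in aged mice 1 to 3 and near 0 in aged mouse 4.

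Aged mouse 1 was the lowest of the 8 mice for 14 of the 31 genes tested and the highest for 6. The genes of a class did not go the same way in it. Among the lowest were Col1a1, Col3a1, Col15a1 and Col6a3, and among the highest Col4a6, Col8a1, Col12a1 and Col13a1.

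Chain pairs were compared as ratios of counts within a library, in which library size cancels, for 9 pairs. For each, the mean log2 ratio in 4 aged mice was set against that in 4 young mice with a two-sided exact permutation test over the 70 orders, for which 0.0286 is the smallest p possible. In 5 of the 9 pairs the groups did not overlap and p was at this limit, with an adjusted p of 0.0514 over the 9 pairs, so that no pair passed the correction. Some genes, such as Col4a3, stand in several pairs. The share of separate groups among pairs of other genes was not computed, so the count cannot be read as particular to collagen. Among single genes, 10% of all tested were separate and lower in aged mice and 8.85% separate and higher. The ratio of Col1a1 to Col1a2, chains that join as 2 to 1 in most type I collagen, was 0.162, 0.316, 0.375 and 0.338 per kilobase in aged mice and 0.467, 0.473, 0.497 and 0.460 in young mice. The level of this ratio, unlike the log2 difference between groups, depends on the lengths used. With the union of exons, Col1a1 and Col1a2 stood at 5.74 and 5.90 CPM per kb in young mice. The young ratios lay within a narrow range, and every aged ratio was below them (log2 difference -0.74, exact permutation p = 0.0286). Without aged mouse 1 the difference was -0.47. Col3a1 to Col1a1, in contrast, was 1.57 ± 0.218 (SD, n = 4) in aged mice and 1.56 ± 0.0913 in young mice.

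The Col4a1 to Col4a2 ratio was 1.18, 1.31, 1.19 and 1.10 in aged mice and 1.43, 1.32, 1.38 and 1.38 in young mice. Aged mouse 2 nearly reached young mouse 2, and the log2 difference was -0.21 (exact permutation p = 0.0286). The Col4a3 to Col4a4 ratio was 0.772, 0.804, 0.677 and 0.793 in aged mice and 1.08, 0.949, 0.921 and 0.930 in young mice, a log2 difference of -0.35. Both of these are head-to-head pairs, the first with the shared bases printed above, and in both the ratio of every aged mouse lay below that of every young mouse. The remaining head-to-head pair, Col4a5 and Col4a6, was not among the pairs compared. Separate ratios are therefore not shown to be a trait of head-to-head pairs. The Col4a5 to Col4a3 ratio was 0.295, 0.174, 0.280 and 0.149 in aged mice and 0.102, 0.127, 0.147 and 0.135 in young mice, a log2 difference of 0.76. Aged mouse 4 was just above the highest young mouse. The Col6a3 to Col6a1 ratio was 0.339, 0.968, 0.889 and 0.901 in aged mice and 1.08, 1.07, 1.16 and 1.07 in young mice. It was lowest by far in aged mouse 1, and the log2 difference of -0.61 became -0.25 without it. The remaining pairs, Col5a1 to Col5a2, Col4a3 to Col4a1 and Col6a1 to Col6a2, overlapped between groups, with log2 differences of 0.28, 0.01 and 0.14.

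**Figure D4:**
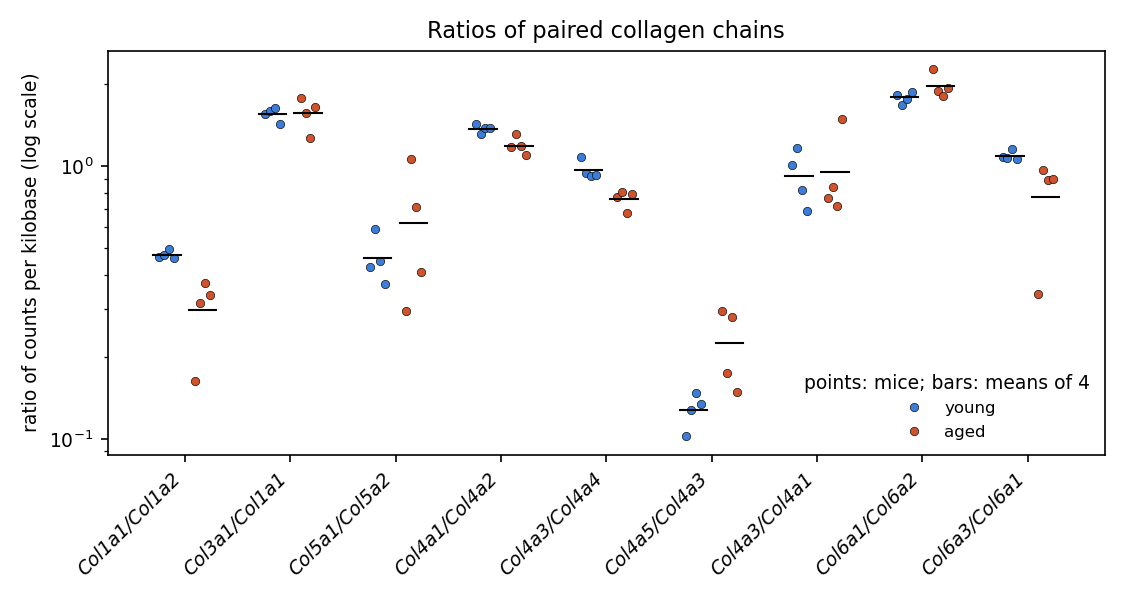
Ratio of counts per kilobase (log scale) for 9 pairs of collagen chains in each of 4 young and 4 aged mice, with group means as bars. The groups are apart for Col1a1/Col1a2, Col4a1/Col4a2, Col4a3/Col4a4, Col4a5/Col4a3 and Col6a3/Col6a1, and aged mouse 1 is the lowest point of Col1a1/Col1a2 at 0.162 and of Col6a3/Col6a1 at 0.339.

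The beaded filament genes of type VI gave no call among 5 tested and a median log2 fold change of -0.18. Col6a1, Col6a2 and Col6a3, the chains of the main type VI trimer, stood at 0.26, 0.13 and -0.18. Col6a3 had 16.2 CPM in aged mouse 1 against 47.7 to 71.9 CPM in the other aged mice and 48.3 to 60.3 CPM in young mice, and without that mouse its log2 fold change turned to 0.10. Col6a6 (ENSMUSG00000043719.7, chr9:105591747-105730415), the member of this class with the smallest p, had 0.344, 1.89, 0.534 and 3.54 CPM in aged mice and 3.64, 3.65, 4.35 and 2.89 CPM in young mice. Aged mouse 4 was within the young range and the other 3 were below it (log2 fold change -1.21, SE 0.60, adjusted p = 0.236, edgeR). Without aged mouse 4 the log2 fold change was -2.02 with an adjusted p of 0.0528, and without aged mouse 1 it was -0.87. Col6a5 stood at -0.87 (adjusted p = 0.268, edgeR), and at -0.58 without aged mouse 1. Col6a4, which was not tested, had 0.267 to 0.654 CPM in aged mice and 0.340 to 0.688 CPM in young mice.

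The 5 fibril-associated genes tested gave no call. Col12a1 (ENSMUSG00000032332.10, chr9:79446798-79566638), whose long chain binds the surface of type I fibrils, had 47.8, 36.6, 33.8 and 32.5 CPM in aged mice and 29.9, 31.2, 27.3 and 29.5 CPM in young mice. Every aged mouse was above every young mouse, which held for no other of the 31 members tested, and aged mouse 1 was the highest. A log2 fold change of 0.35 was fitted (SE 0.13, adjusted p = 0.13, edgeR), and 0.22 without aged mouse 1. Col14a1, a close relative and the most abundant of this class, stood at -0.07 and turned to 0.07 without aged mouse 1. Col16a1 stood at -0.53 (adjusted p = 0.195, edgeR) and Col20a1 at -0.19, which became -0.36 and -0.46 without aged mouse 1. Col19a1 (chr1:24268729-24594311), singled out after its values were seen, had 0.638, 0.781, 0.641 and 9.75 CPM in aged mice and 11.6, 7.51, 7.68 and 7.38 CPM in young mice. Aged mouse 4 had a level of the young mice, and the other 3 aged mice were far below it. With all mice the log2 fold change was -1.53 (SE 0.83, adjusted p = 0.274, edgeR). Without aged mouse 4 it was -3.63 with an adjusted p of 0.000895, and without aged mouse 1 it was -1.18 with an adjusted p of 0.36.

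The network and membrane-spanning genes were low. Col8a2 (ENSMUSG00000056174.7, chr4:125964037-125991574), a short chain known from the membrane under the corneal endothelium, had 0.688, 2.34, 1.87 and 1.14 CPM in aged mice and 0.863, 1.48, 0.816 and 0.650 CPM in young mice, overlapping ranges (log2 fold change 0.64, SE 0.42, adjusted p = 0.356, edgeR). Its partner Col8a1 stood at 0.31, and at -0.05 without aged mouse 1. Col13a1 (ENSMUSG00000058806.7, chr10:61300984-61441856), a transmembrane chain, had 15.7, 1.69, 3.37 and 3.21 CPM in aged mice and 1.54, 3.12, 2.58 and 2.72 CPM in young mice. Aged mouse 1 stood alone, and the other aged mice were within or close to the young range. Its log2 fold change of 1.27 (SE 0.64, adjusted p = 0.244, edgeR) became 0.15 without aged mouse 1. Col23a1 stood at 0.29 and turned to -0.06 without that mouse. The urothelial and adipocyte marker levels of this library stand above, and their part in these values was not tested.

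The 11 members under the minimum were all rare in this tissue. Col11a2 had 5 to 19 counts per library and Col9a3, a chain of a fibril-associated type known from cartilage, had 2 to 10. Its counts were 7, 10, 6 and 8 in aged mice and 5, 2, 3 and 4 in young mice, or 0.321 to 0.650 CPM against 0.106 to 0.308 CPM. Every aged mouse was above every young mouse at this depth, and with no filter on low counts the log2 fold change was 1.0 (SE 0.46, adjusted p = 0.24, edgeR). It was singled out after its values were seen. Col2a1, Col9a1, Col9a2, Col10a1, Col11a1, Col17a1, Col22a1, Col25a1 and Col28a1 had at most 6 counts in any library. Most of these are known from cartilage, skin or nerve. These members were not in the test that gave the calls.

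The genes that act on collagen chains were read from lists in the same fit. Of 17 genes for chain modification and folding, 15 were tested, 8 had an unadjusted p below 0.05 and were lower in aged mice (12.1% of all genes), none was higher, and the median log2 fold change was -0.25. P4ha1, a catalytic subunit of prolyl 4-hydroxylase, fell with age, and it was the only one called (0.889% of all genes were called lower). It had 38.2, 51.5, 76.9 and 64.0 CPM in aged mice and 105, 92.8, 107 and 129 CPM in young mice, groups that did not overlap, with aged mouse 1 the lowest. For P4ha1 the log2 fold change was -0.91 (SE 0.20, adjusted p = 0.0498, edgeR), and -0.75 without aged mouse 1. The call held in 8 of 18 alternatives, with adjusted p from 0.000977 to 0.145. Next by p were the lysyl hydroxylases Plod1 at -0.36 (adjusted p = 0.0516, edgeR) and Plod2 at -0.74 (adjusted p = 0.0525). Serpinh1, the collagen chaperone of the endoplasmic reticulum, had 31.1, 74.0, 105 and 53.7 CPM in aged mice and 109 to 125 CPM in young mice (adjusted p = 0.14, edgeR). Plod1, Plod2 and Serpinh1 were named after their values were seen.

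Of 14 genes tested for propeptide cleavage and crosslinking, none was called, and 2 were lower and 1 was higher at an unadjusted p below 0.05, where 12.1% and 13.4% of all genes were. The 2 with the smallest p were Pxdn, the peroxidase that crosslinks type IV collagen, at -0.47 (adjusted p = 0.103, edgeR), and Loxl2, a lysyl oxidase, at -0.61 (adjusted p = 0.123). Of 9 receptor and uptake genes tested, 1 was called (2.06% of all genes), and the median log2 fold change was -0.16. Itga11, the alpha subunit of an integrin that binds type I collagen, rose with age from 0.555 to 0.846 CPM in young mice to 1.34 to 2.08 CPM in aged mice. The groups were apart at a low level, and the log2 fold change was 1.29 (SE 0.25, adjusted p = 0.039, edgeR). The call held in 9 of the 17 alternatives that gave a value, with adjusted p from 0.00681 to 0.127. Ddr1, a receptor tyrosine kinase that collagen activates, had 117 to 139 CPM in aged mice and 165 to 202 CPM in young mice. Its adjusted p was 0.0255 (edgeR), and its log2 fold change of -0.58 was just under the fold limit.

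Of 10 fibril-binding proteoglycans and glycoproteins tested, 1 was called (2.06% of all genes) and the median log2 fold change was 0.20, against 0.03 over all genes. Omd, a small leucine-rich proteoglycan, rose with age. It had 8.15, 6.83, 10.8 and 8.06 CPM in aged mice and 2.22, 5.08, 2.79 and 3.43 CPM in young mice, groups that did not overlap. The log2 fold change was 1.32 (SE 0.26, adjusted p = 0.0401, edgeR), and 1.33 without aged mouse 1. The call held in 11 of 18 alternatives, with adjusted p from 0.000218 to 0.13. Sparc, a matrix glycoprotein that binds collagen, had the next smallest p, at -0.52 (adjusted p = 0.113, edgeR), and like Ddr1 it was named after its values were seen.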

How the data were processed

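RNA from the kidney cortex of 8 mice was sequenced as stranded, ribosomal RNA-depleted libraries. Per the authors' methods, TopHat2 placed the reads on mm9 and HTSeq counted those on the strand of each RefSeq gene; the submitters' processing notes also name CASAVA 1.8.2 and SAMtools. The deposited values are raw counts. They were tested with edgeR 4.0.16 (R 4.3.3, limma 3.58.1; trimmed mean of M-values, filterByExpr with a minimum count of 10, quasi-likelihood test, Benjamini-Hochberg). A gene was called at a fold change over 1.5 with adjusted p under 0.05. DESeq2 1.42.0, limma-voom, other scalings, other filters, a replicate block and the removal of each mouse were alternatives. Ratios used counts + 0.5. Transcript lengths and positions came from GENCODE vM1, which is on the mm9 assembly, and promoter windows from RefSeq. No member's transcript had a copy elsewhere of at least 100 bases at 98% identity (BLAST+ 2.17.0). The members and lists were chosen with earlier results of these data known. Every member that reached 10 counts in 4 or more libraries was named in its class, with full statistics for those called, for the 3 fibrillar and 3 basement membrane genes of highest mean level per kilobase and for the smallest p of each other class. For each pathway list the genes called, or else the 2 with the smallest p, were named. Each library came from 1 mouse, and p-values measure the spread between these mice. Whether the replicate numbers of the labels pair the mice was not settled, and the main fit used no pairing. The correlation of same-numbered aged and young libraries ranged from -0.0302 to 0.2064. Libraries with different numbers ranged from -0.2998 to 0.1652.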

Additional observations from a re-analysis of the deposited data

Results flagged for a closer look

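Of 82 groups of 4 mice tested for a mouse far from the others (Dixon's ratio of its gap to the range of the group), 7 passed, where chance would give about 4.1, or 1 in 20. That share holds for normally distributed values. Single genes were taken as CPM without a log scale, which can be skewed, so 7 and 4.1 cannot be compared closely. In aged mouse 1, Col4a6 was the highest of the aged mice with a ratio of 0.889 and Col13a1 with a ratio of 0.880, and the Col6a3 to Col6a1 ratio was the lowest with 0.919. This is the library with the highest summed adipocyte and urothelial marker levels. Col19a1 was far above the other aged mice in aged mouse 4, with a ratio of 0.984, and highest of the young mice in young mouse 1, with 0.928. Col6a5 was highest of the young mice in young mouse 2 with 0.848, and the Col6a3 to Col6a1 ratio in young mouse 3 with 0.830.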

How the results depend on the processing

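The 1 collagen gene called became 6 with DESeq2, 2 with no fold limit, 0 with a replicate block and 0 to 5 on leaving out 1 mouse (5 without aged mouse 1, 0 without aged mouse 3 or any young mouse), and stayed 1 under other scalings and filters, limma-voom and robust edgeR. Over all genes the 287 calls became 488 with library size only, 873 with DESeq2, 130 with the replicate block and 8 to 733 on leaving out 1 mouse. With library size only, 75.4% of calls were higher in aged mice, against 56.8%, and over all genes the median log2 fold change went from 0.03 to 0.14. The cause of these changes was not tested.

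Over 556 refits of single genes, 523 kept their side of the threshold and direction, 12 gained the call, 6 lost it and 15 turned in sign. The turns were Col14a1 at 0.04 with library size only and Col7a1 at -0.03 with the replicate block, and on leaving out 1 mouse Col4a5 (-0.03 to 0.12), Col6a2 (-0.01 to 0.27), Col6a3 (-0.45 to 0.10), Col7a1 (-0.12 to 0.26), Col8a1 (-0.05 to 0.55), Col14a1 (-0.23 to 0.07), Col23a1 (-0.06 to 0.62) and Col24a1 (-0.09 to 0.36). Log2 ratio differences on leaving out 1 mouse ran from -0.87 to -0.47 for Col1a1/Col1a2, -0.06 to 0.10 for Col3a1/Col1a1, -0.04 to 0.58 for Col5a1/Col5a2, -0.26 to -0.17 for Col4a1/Col4a2, -0.38 to -0.29 for Col4a3/Col4a4, 0.61 to 0.94 for Col4a5/Col4a3, -0.23 to 0.13 for Col4a3/Col4a1, 0.07 to 0.18 for Col6a1/Col6a2 and -0.76 to -0.25 for Col6a3/Col6a1. With 5 counts added, Col3a1/Col1a1 was -0.0033. With the replicate block (sign flips of 4 pairs, smallest exact p = 0.125), the 5 ratio differences at the limit (-0.74, -0.21, -0.35, 0.76 and -0.61) could not pass. Whether the numbers pair the mice was not settled. Depth limited the members under the minimum.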
